A study of Mus musculus with 24 samples.

Results

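A group of 10 heart muscle genes was followed across the series: the transcription factors Nkx2-5 and Tbx5, and the sarcomere genes Tnnt2, Tnni1, Actc1, Myl4, Myl7, Myh6, Myh7 and Ttn. They were chosen by name, each from a probe set annotated to that symbol alone, and the probe set with the highest mean would have been taken where a gene had several. Each of the 10 had 1 such probe set, so all 10 were measured, out of 19938 genes named in this way. Embryoid bodies (EBs), which are floating aggregates that differentiate on their own, were grown from a mouse embryonic stem cell line with a reporter in the Sox1 locus. EBs that received cyclosporin A at 1 ug/ml together with FK506 at 100 ng/ml between day 3 and day 8 were set against EBs that received neither agent, each at days 4, 6, 8 and 12. All groups started on gelatin with LIF and were moved to low attachment dishes at day 3. EBs kept longer were plated at day 7 and had a serum-free medium from day 8. The groups of days 4 and 6 were thus sampled before both changes. Plating falls between days 6 and 8, and the serum-free medium between days 8 and 12. Their effects cannot be told apart from that of time. Both agents inhibit the phosphatase calcineurin, and by day 12 the treated EBs had been without them since day 8. Each of the 8 groups held 3 arrays, taken from 3 independent experiments, which made 24 Affymetrix Mouse Gene ST 1.0 arrays in all. The title of the series sets the comparison in the context of BMP and neural induction. The EBs were not sorted, so in these bulk RNA samples fewer cardiac cells and less RNA per cell cannot be told apart.

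The sarcomere is the contractile unit of striated muscle, built from thin actin filaments that carry the troponin complex, thick myosin filaments and the spring-like titin that anchors them to the Z-disc. Nkx2-5 and Tbx5 are DNA-binding factors of the early heart that act together with GATA and MEF2 factors on such genes. In the mouse embryo the slow skeletal troponin I, the atrial light chains and the beta-type myosin heavy chain are made in early heart muscle, and several of these genes are later restricted to one chamber or to skeletal muscle.

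All values are log2 signals from robust multiarray average (RMA), so a difference of 1 is a doubling of signal, and signals of different probe sets were not compared with each other. Differences were tested with limma across all genes, and a gene was called where its Benjamini-Hochberg adjusted p was below 0.05. No detection calls came with the values, and whether a low signal exceeds background is therefore unknown. A list of 15 skeletal muscle markers averaged between 6.87 and 7.18 in the 8 groups, with no rise at day 12: between days 12 and 8 it had 2 members higher and 1 lower in treated EBs, and 2 higher and 5 lower in untreated EBs (of all genes 16.5% were higher and 16.7% lower in treated EBs, and 18.8% and 19.9% in untreated EBs). Between days 4 and 6, 13 of the 15 were lower and 1 higher in treated EBs, and 12 lower and 0 higher in untreated EBs. Of all genes 25.1% were lower and 19.1% higher in treated EBs, and 20.9% and 21.1% in untreated EBs. Between days 6 and 8, 4 of the 15 rose in treated EBs and 9 in untreated EBs (16.8% and 17.8% of all genes). A low point at day 6, described below for some members, was thus not particular to them. The same list held Tnnt3, the fast skeletal troponin T, which was higher in treated EBs at day 6 by 0.79 (SE 0.13, adjusted p = 0.0014). Myh6 and Myh7 lie side by side on chromosome 14 and are close in sequence, and how far their probes pick up each other's RNA was not tested.

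RefSeq promoter windows of GRCm38.p6, each 250 bases before to 50 after a gene start, were found for 9 of the 10 members, 12 windows in all. They are shown for the 3 members whose windows held the serum response factor site (CArG box) or the MEF2 box, which is in capitals. Both were searched by name on both strands. Actc1 lies at chr2:114052826-114053125 (minus strand), Myl7 at chr11:5898733-5899032 (minus strand) and Ttn at chr2:76982498-76982797 (minus strand), each written 5′ to 3′ on the gene's strand.
Actc1: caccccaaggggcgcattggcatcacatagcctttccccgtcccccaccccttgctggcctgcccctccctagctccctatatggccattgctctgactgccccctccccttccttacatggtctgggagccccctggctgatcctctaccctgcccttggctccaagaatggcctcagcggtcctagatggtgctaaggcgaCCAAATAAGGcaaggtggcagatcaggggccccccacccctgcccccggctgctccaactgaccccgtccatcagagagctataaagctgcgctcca
Myl7: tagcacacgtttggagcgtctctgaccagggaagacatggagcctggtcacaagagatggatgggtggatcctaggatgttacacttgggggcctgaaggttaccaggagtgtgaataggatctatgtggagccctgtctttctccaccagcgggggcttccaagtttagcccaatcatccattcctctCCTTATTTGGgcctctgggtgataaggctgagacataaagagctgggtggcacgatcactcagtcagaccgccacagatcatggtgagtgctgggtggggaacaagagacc
Ttn: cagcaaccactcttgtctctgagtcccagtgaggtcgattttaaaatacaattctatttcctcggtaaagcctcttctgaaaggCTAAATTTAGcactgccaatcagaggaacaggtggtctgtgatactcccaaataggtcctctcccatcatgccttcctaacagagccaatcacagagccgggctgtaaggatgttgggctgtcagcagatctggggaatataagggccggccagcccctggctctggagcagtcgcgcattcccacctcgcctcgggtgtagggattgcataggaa
The CArG box of Actc1 ran from -47 to -38, with the first transcribed base at 0, and that of Myl7 from -61 to -52. No other member window held one, and 1.63% of all 32851 promoter windows did. The MEF2 box of Ttn ran from -166 to -157, and 3.19% of all windows held one. The GATA box AGATAA was found in Tnnt2 (11.2% of all windows), the E box CAGCTG in Tnni1 and Tnnt2 (16.3%), and the T-box motif AGGTGT in Tnni1 (13.7%). The Nkx2-5 element, CACTTAA or CACTTGA, was in none of the 12 member windows and in 5.34% of all windows. Within a window none of these matches overlapped another. The 2 windows of Tnni1 overlap and hold the same matches. A match describes letters, not a bound site.

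Most members rose late, and they did so with and without the calcineurin inhibitors. Between day 8 and day 12 all 10 rose in treated EBs, where 16.5% of all genes were called higher, and 9 of 10 rose in untreated EBs, where 18.8% were. The median difference of the 10 was 2.16 in treated EBs and 2.18 in untreated EBs, beside medians over all genes of 0.01 in treated EBs and -0.06 in untreated EBs. The 8 sarcomere genes carried this step, at 2.64-fold (Tnni1) to 7.07-fold (Myl7) in treated EBs and at 2.92-fold (Tnni1) to 6.66-fold (Myl4) in untreated EBs. The same 8 were called higher under every alternative setting that gave a value for them. The 2 factors moved less over this step. A late rise was not particular to the members. Of 10 fibroblast and mesenchyme markers 6 rose and 0 fell in treated EBs, and 8 rose and 0 fell in untreated EBs. Of 10 neural progenitor markers 7 rose and 0 fell in each treatment. Of 10 pluripotency markers 0 rose, and 8 fell in treated and 10 in untreated EBs (16.7% and 19.9% of all genes fell).

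**Figure D1:**
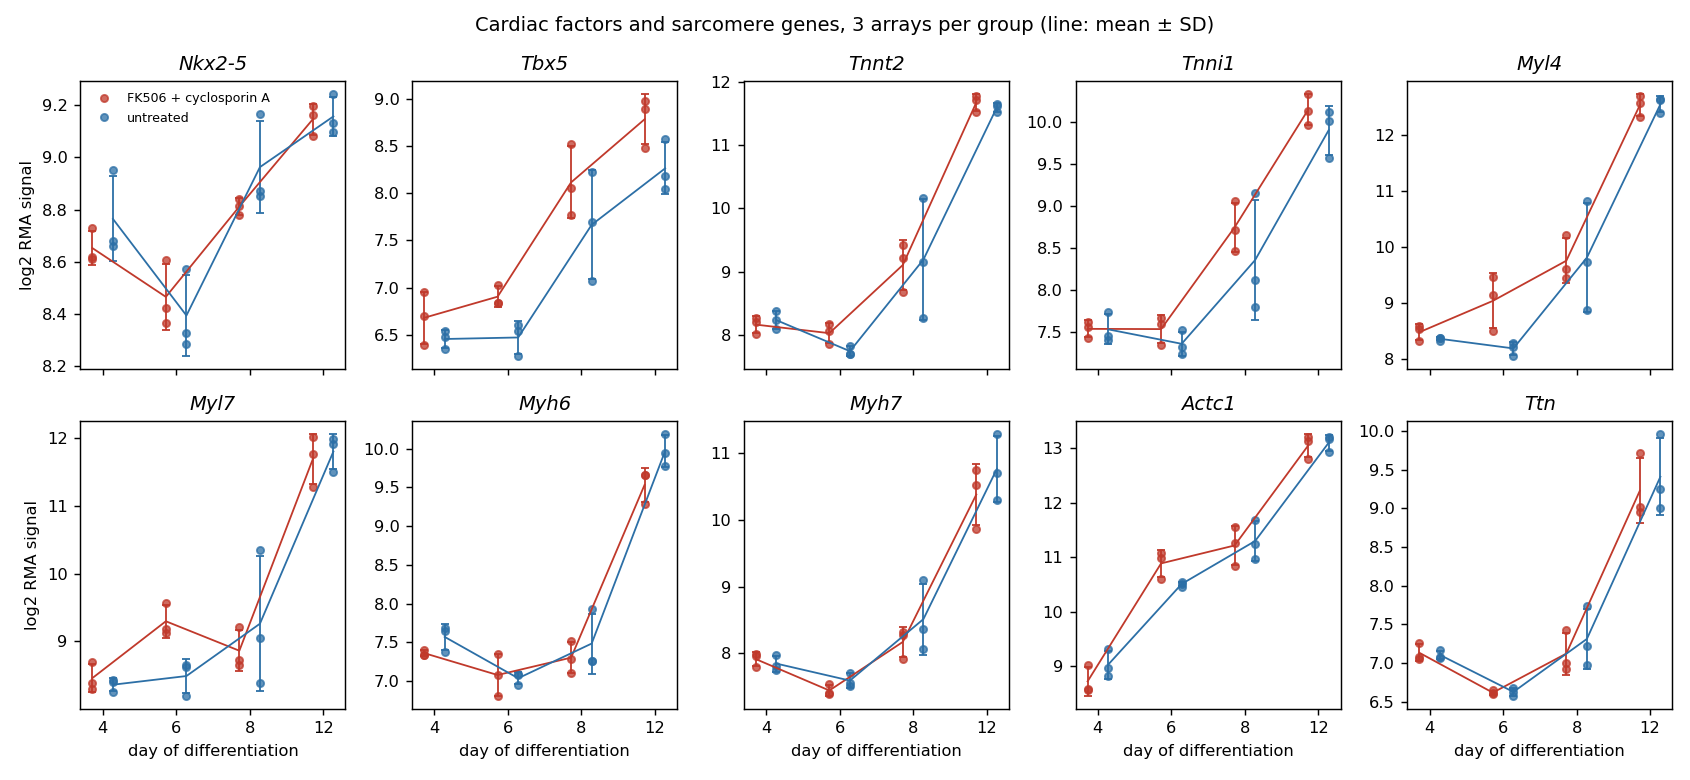
Log2 RMA signal of each member (vertical axis, own scale per panel) by day of differentiation (horizontal axis), in treated (red, drawn left) and untreated EBs (blue). Points are the 3 arrays of a group, and lines and bars give their mean ± SD. For the 8 sarcomere genes the day 12 points of both colours lie above all points of earlier days, while the red and blue points of day 12 overlap for all but Myh6.

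Nkx2-5, a homeobox factor of cardiac progenitors (probe set 10449292), had the smallest range of the 10, its 8 group means spanning 0.76. In treated EBs it read 8.61, 8.62 and 8.73 at day 4, 8.37, 8.61 and 8.42 at day 6, 8.82, 8.78 and 8.84 at day 8, and 9.08, 9.16 and 9.20 at day 12. In untreated EBs it read 8.95, 8.68 and 8.66 at day 4, 8.57, 8.28 and 8.33 at day 6, 9.16, 8.85 and 8.87 at day 8, and 9.13, 9.10 and 9.24 at day 12. Day 6 was the low point in both, and the treated and untreated arrays overlapped at each day but day 8, when all 3 treated arrays lay just below the untreated ones. From day 4 to day 6 Nkx2-5 fell by 0.37 in untreated EBs (SE 0.09, adjusted p = 0.0037), and its difference in treated EBs was -0.19 (adjusted p = 0.111). It then rose between days 6 and 8, by 0.35 in treated EBs (adjusted p = 0.0054) and by 0.57 in untreated EBs (adjusted p = 1.35e-04). At day 12 it rose by another 0.33 in treated EBs (adjusted p = 0.0082, and 0.0534 after median centring), while untreated EBs gave 0.19 (adjusted p = 0.11), or 0.30 (adjusted p = 0.0215; 0.0215 to 0.518 over the alternatives) without replicate 1 of day 8.

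Tbx5, the T-box factor of the early heart and forelimb (probe set 10525030), rose mainly between days 6 and 8. Its treated arrays read 6.95, 6.40 and 6.69 at day 4, 7.03, 6.84 and 6.84 at day 6, 8.05, 7.77 and 8.52 at day 8, and 8.98, 8.48 and 8.89 at day 12. Its untreated arrays read 6.47, 6.54 and 6.35 at day 4, 6.60, 6.28 and 6.54 at day 6, 8.23, 7.07 and 7.70 at day 8, and 8.57, 8.04 and 8.18 at day 12. All day 8 arrays lay above all day 6 arrays within each treatment, whereas day 12 overlapped day 8 in both. The step from day 6 to day 8 was 1.21 in treated EBs (SE 0.22, adjusted p = 1.56e-04) and 1.19 in untreated EBs (SE 0.22, adjusted p = 3.60e-04). The step to day 12 was 0.67 in treated EBs (adjusted p = 0.0222) and 0.60 in untreated EBs (adjusted p = 0.0361), and both calls depended on single arrays. In treated EBs the call ended without day 8 replicate 1 (adjusted p = 0.0571), day 8 replicate 2 (0.13), day 12 replicate 1 (0.0966) or day 12 replicate 3 (0.0776; 0.0029 to 0.13 over the alternatives). In untreated EBs it ended without day 8 replicate 2 (adjusted p = 0.288), day 8 replicate 3 (0.0616), day 12 replicate 1 (0.159) or day 12 replicate 3 (0.0553; 0.0025 to 0.288 over the alternatives).

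Actc1, the cardiac alpha-actin of the thin filament (probe set 10485982), was the only member that rose at day 6 in both treated and untreated EBs. The signal in treated EBs was 9.02, 8.57 and 8.56 at day 4, 10.61, 10.98 and 11.07 at day 6, 11.26, 10.83 and 11.56 at day 8, and 12.80, 13.20 and 13.14 at day 12. The signal in untreated EBs was 9.31, 8.81 and 8.96 at day 4, 10.46, 10.55 and 10.51 at day 6, 11.68, 10.96 and 11.25 at day 8, and 12.93, 13.21 and 13.17 at day 12. The day 4 arrays of both treatments lay below every later array, and treated and untreated arrays overlapped at days 4, 8 and 12. Between days 4 and 6 the difference was 2.17 in treated EBs (4.49-fold, SE 0.19, adjusted p = 1.98e-08) and 1.48 in untreated EBs (2.79-fold, SE 0.19, adjusted p = 3.26e-06). The difference between these 2 steps was 0.69 (SE 0.26) and was not called (adjusted p = 0.453). Between days 6 and 8 untreated EBs rose by 0.79 (adjusted p = 0.0028), while treated EBs gave 0.33 (adjusted p = 0.167), or 0.52 (adjusted p = 0.0319; 0.0062 to 0.569 over the alternatives) without replicate 2 of day 8. The last step, to day 12, was 1.83 in treated EBs (adjusted p = 1.23e-07) and 1.80 in untreated EBs (adjusted p = 1.03e-07). Between days 4 and 6, 4 of 10 smooth muscle markers rose and 2 fell in treated EBs (19.1% and 25.1% of all genes). In untreated EBs 7 of them rose and 2 fell (21.1% and 20.9%).

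Tnnt2, the cardiac troponin T that ties the troponin complex to tropomyosin (probe set 10350173), rose in 2 steps. Treated EBs gave 8.21, 8.01 and 8.26 at day 4, 8.16, 7.85 and 8.06 at day 6, 9.21, 8.67 and 9.42 at day 8, and 11.53, 11.72 and 11.78 at day 12. Untreated EBs gave 8.37, 8.23 and 8.09 at day 4, 7.83, 7.70 and 7.69 at day 6, 10.16, 8.26 and 9.15 at day 8, and 11.52, 11.62 and 11.65 at day 12. The untreated arrays of day 8 spread over nearly 2 units, while those of day 12 lay within a fraction of 1. From day 6 to day 8 Tnnt2 rose by 1.08 in treated EBs (adjusted p = 0.0028) and by 1.45 in untreated EBs (adjusted p = 3.93e-04). From day 8 to day 12 it rose by 2.57 in treated EBs (5.94-fold, SE 0.27, adjusted p = 1.86e-07) and by 2.41 in untreated EBs (5.31-fold, SE 0.27, adjusted p = 3.11e-07).

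Tnni1, the slow skeletal troponin I that inhibits the thin filament and is also made in embryonic heart (probe set 10350149), lies near Tnnt2 on chromosome 1. With the inhibitors it read 7.62, 7.42 and 7.56 at day 4, 7.66, 7.34 and 7.59 at day 6, 9.05, 8.46 and 8.72 at day 8, and 10.14, 10.33 and 9.97 at day 12. Without the inhibitors it read 7.73, 7.45 and 7.40 at day 4, 7.52, 7.31 and 7.24 at day 6, 9.16, 7.79 and 8.12 at day 8, and 9.57, 10.12 and 10.02 at day 12. Days 4 and 6 overlapped in both treatments, and each later day lay above the one before it. Tnni1 rose between days 6 and 8 by 1.21 in treated EBs (adjusted p = 2.15e-04) and by 1.00 in untreated EBs (adjusted p = 0.0021). Between days 8 and 12 it rose by 1.40 in treated EBs (adjusted p = 4.93e-05) and by 1.55 in untreated EBs (adjusted p = 1.17e-05).

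Myl4, the atrial essential light chain of myosin, which is also made in embryonic muscle (probe set 10381798), lay between 12.31 and 12.70 on all 6 arrays of day 12. In treated EBs it read 8.58, 8.53 and 8.32 at day 4, 9.47, 8.51 and 9.13 at day 6, 9.60, 9.45 and 10.21 at day 8, and 12.31, 12.70 and 12.57 at day 12. In untreated EBs it read 8.33, 8.38 and 8.38 at day 4, 8.22, 8.05 and 8.29 at day 6, 10.82, 8.87 and 9.73 at day 8, and 12.38, 12.62 and 12.64 at day 12. In treated EBs the day 6 arrays already overlapped those of day 8, while in untreated EBs every day 6 array lay below every day 8 array. Between days 6 and 8 Myl4 rose by 1.62 in untreated EBs (SE 0.30, adjusted p = 4.00e-04). In treated EBs that difference was 0.72 (SE 0.30, adjusted p = 0.0622), and it was called without replicate 1 of day 6 (0.93, adjusted p = 0.0314) or replicate 2 of day 8 (0.87, adjusted p = 0.0421; 0.0046 to 0.289 over the alternatives). After day 8 it rose by 2.77 in treated EBs (6.84-fold, adjusted p = 3.17e-07) and by 2.74 in untreated EBs (6.66-fold, adjusted p = 2.56e-07).

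Myl7, the atrial regulatory light chain (probe set 10384044), was the only member with a lower mean at day 8 than at day 6 in treated EBs, a difference that was not called. Its treated arrays read 8.69, 8.39 and 8.30 at day 4, 9.57, 9.19 and 9.13 at day 6, 8.65, 8.73 and 9.21 at day 8, and 11.28, 12.01 and 11.76 at day 12. Its untreated arrays read 8.25, 8.40 and 8.44 at day 4, 8.65, 8.20 and 8.62 at day 6, 10.35, 8.39 and 9.05 at day 8, and 11.50, 11.99 and 11.90 at day 12. The treated arrays of day 6 all lay above those of day 4 and overlapped those of day 8. Between days 4 and 6 Myl7 rose by 0.84 in treated EBs (SE 0.30, adjusted p = 0.0304), and untreated EBs gave 0.13 (adjusted p = 0.759). The treated call ended without day 4 replicate 2 (adjusted p = 0.0724), day 4 replicate 3 (0.089) or day 6 replicate 1 (0.113), in a range of 9.80e-04 to 0.113 over the alternatives. From day 6 to day 8 the difference was -0.43 in treated EBs (adjusted p = 0.266) and 0.77 in untreated EBs (adjusted p = 0.052). Without replicate 2 of day 8, untreated EBs gave 1.21 (adjusted p = 0.0025; 0.0025 to 0.482 over the alternatives). From day 8 to day 12 Myl7 rose by 2.82 in treated EBs (7.07-fold, adjusted p = 2.60e-07) and by 2.53 in untreated EBs (5.80-fold, adjusted p = 7.60e-07).

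Myh6, the alpha-type myosin heavy chain that works as the thick filament motor of the adult mouse heart (probe set 10419900), rose almost wholly after day 8. The signal in treated EBs was 7.34, 7.34 and 7.41 at day 4, 7.08, 7.35 and 6.81 at day 6, 7.11, 7.29 and 7.51 at day 8, and 9.28, 9.65 and 9.66 at day 12. The signal in untreated EBs was 7.65, 7.69 and 7.38 at day 4, 7.07, 7.09 and 6.95 at day 6, 7.93, 7.26 and 7.26 at day 8, and 9.78, 10.19 and 9.94 at day 12. Untreated EBs were lower at day 6 than at day 4 on all 3 arrays, by 0.53 (SE 0.16, adjusted p = 0.0114). They rose again by 0.45 at day 8 (adjusted p = 0.0346), a call that ended without any of the 3 arrays of day 6 (adjusted p = 0.0591, 0.0648 and 0.105) or without replicate 1 of day 8 (0.22, adjusted p = 0.283; 0.0201 to 0.283 over the alternatives). In treated EBs the differences were -0.28 between days 4 and 6 (adjusted p = 0.157) and 0.22 between days 6 and 8 (adjusted p = 0.28). Between days 8 and 12 Myh6 rose by 2.23 in treated EBs (4.68-fold, SE 0.16, adjusted p = 8.06e-10) and by 2.48 in untreated EBs (5.59-fold, SE 0.16, adjusted p = 8.52e-11).

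Myh7, the beta-type heavy chain of the fetal heart and slow skeletal muscle (probe set 10419934), rose at both late steps. Treated EBs gave 7.79, 7.96 and 7.99 at day 4, 7.40, 7.53 and 7.39 at day 6, 8.27, 7.91 and 8.32 at day 8, and 9.87, 10.75 and 10.53 at day 12. Untreated EBs gave 7.97, 7.81 and 7.74 at day 4, 7.71, 7.50 and 7.55 at day 6, 9.10, 8.07 and 8.37 at day 8, and 10.31, 11.29 and 10.70 at day 12. Its 6 arrays of day 12 covered more than 1 unit, and replicate 1 was the lowest of both groups. Between days 6 and 8 it rose by 0.73 in treated EBs (adjusted p = 0.0146) and by 0.92 in untreated EBs (adjusted p = 0.0042). The treated call ended without day 8 replicate 1 (0.68, adjusted p = 0.0524) or day 8 replicate 3 (0.65, adjusted p = 0.0593; 4.91e-04 to 0.0593 over the alternatives). After day 8 it rose by 2.22 in treated EBs (adjusted p = 1.69e-07) and by 2.26 in untreated EBs (adjusted p = 8.50e-08).

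Ttn, the gene of the giant elastic protein titin (probe set 10483871), also had its low point at day 6. With the inhibitors it read 7.26, 7.08 and 7.05 at day 4, 6.64, 6.61 and 6.59 at day 6, 7.00, 6.93 and 7.43 at day 8, and 8.95, 9.71 and 9.02 at day 12. Without the inhibitors it read 7.17, 7.08 and 7.07 at day 4, 6.68, 6.62 and 6.58 at day 6, 7.73, 6.98 and 7.22 at day 8, and 9.25, 9.96 and 9.01 at day 12. The 6 arrays of day 6 lay close together and below every other array. The drop from day 4 was 0.52 in treated EBs (difference -0.52, SE 0.21, adjusted p = 0.0479) and the difference in untreated EBs was -0.48 (adjusted p = 0.068). The treated call ended without any one of its 6 arrays, with adjusted p from 0.0698 to 0.137. At day 8 Ttn rose by 0.69 in untreated EBs (adjusted p = 0.0141), a call that ended without replicate 1 of day 8 (0.47, adjusted p = 0.112; 0.0039 to 0.112 over the alternatives). Treated EBs gave 0.51 at that step (adjusted p = 0.055), or 0.60 without replicate 2 of day 8 (adjusted p = 0.0401; 0.0012 to 0.241 over the alternatives). From day 8 to day 12 the rise was 2.11 in treated EBs (4.30-fold, adjusted p = 7.47e-08) and 2.10 in untreated EBs (4.28-fold, adjusted p = 5.14e-08).

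Counted by step, most members rose after day 6. At the first step, between days 4 and 6, 30% of the 10 were called in each treatment. Of all genes 44.2% were called in treated EBs and 42.0% in untreated EBs. With only 10 members, this gap was not read as a difference. Between days 4 and 6, 2 of 10 rose and 1 fell in treated EBs, where 19.1% of all genes were called higher and 25.1% lower. In untreated EBs 1 rose and 2 fell, where 21.1% of all genes were called higher and 20.9% lower. From day 6 to day 8, 5 of 10 rose in treated EBs (16.8% of all genes) and 9 of 10 in untreated EBs (17.8%), with medians of 0.61 in treated EBs and 0.86 in untreated EBs. The comparisons of neighbouring days share arrays, since day 6 and day 8 arrays each enter 2 steps.

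**Figure D2:**
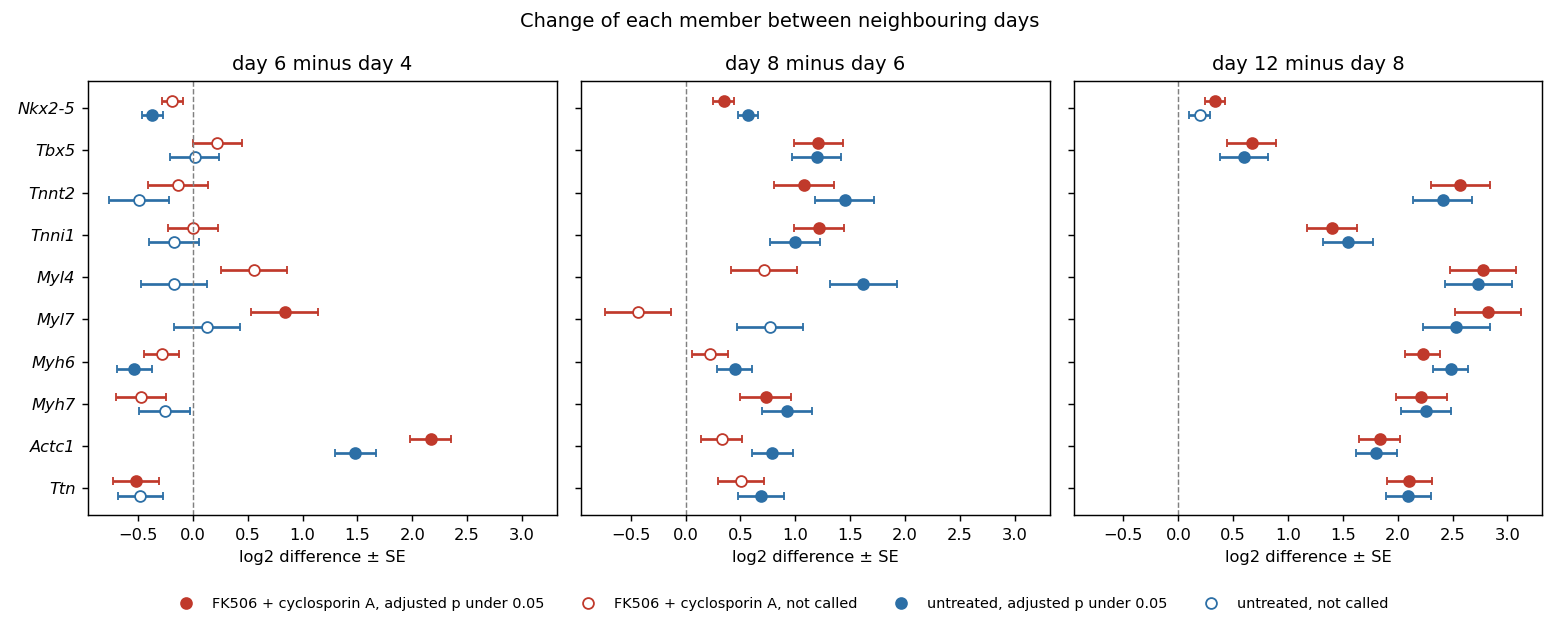
Log2 difference of each member (rows) between neighbouring days, later minus earlier, in treated (red, upper) and untreated EBs (blue, lower), with bars of 1 SE. Filled points were called at an adjusted p under 0.05. Actc1 alone lies above 1 in the first panel, and the 8 sarcomere genes lie between 1.40 and 2.82 in the last.

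Set against untreated EBs of the same day, treated EBs showed no called difference in any of the 10 members at any of the 4 days in the fit without a replicate block. With the replicate number as a block within the day, 3 members were called at day 12: Tbx5 higher (adjusted p = 0.0234) and Myh6 (0.0487) and Myh7 (0.0432) lower. The share of all genes called under this block is not given here, so the count of 3 has no background beside it. In limma without the block, 0 of 10 were called at day 4 (0 at an unadjusted p below 0.05), 0 at day 6 (2 unadjusted), 0 at day 8 (0 unadjusted) and 0 at day 12 (2 unadjusted). Of all genes, 0.00502% were called at day 4, 1.84% at day 6, 8.93% at day 8 and 17.9% at day 12, also without the block. The median difference of the 10 was 0.02 at day 4, 0.23 at day 6, -0.12 at day 8 and -0.03 at day 12, beside 0.03, 0.00, -0.04 and 0.02 over all genes. At day 4 the differences lay between -0.31 (Actc1, 95% interval -0.70 to 0.08) and 0.22 (Tbx5, 95% interval -0.23 to 0.68). Precision differed between members: the SE of a treatment difference was 0.09 for Nkx2-5 and 0.30 for Myl4 and Myl7. Each SE pools the spread of all 8 groups, so 1 wide group widens the intervals of that gene at every day. For Myl4 the SD was 0.98 in untreated EBs at day 8. At day 12 it was 0.20 in treated EBs and 0.14 in untreated EBs.

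**Figure D3:**
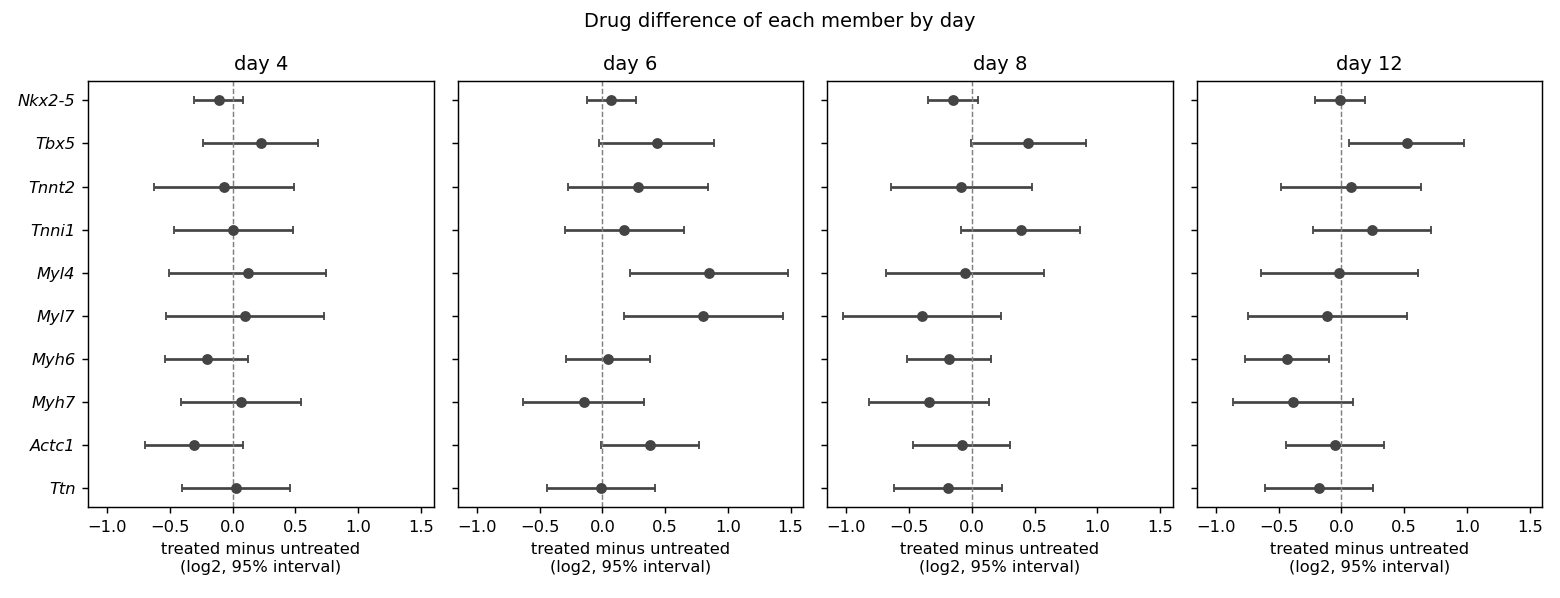
Difference in log2 signal between treated and untreated EBs (horizontal axis, treated minus untreated) for each member at each day, with 95% intervals from limma. At day 6 the intervals of Myl4 and Myl7 lie above 0, and at day 12 that of Tbx5 lies above 0 and that of Myh6 below, though none of the 4 passed the adjusted threshold without a replicate block.

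At day 6, Myl4 and Myl7 stood highest in treated EBs relative to untreated EBs. The Myl4 difference was 0.85 (1.80-fold, SE 0.30, 95% interval 0.22 to 1.48, adjusted p = 0.195) and that of Myl7 was 0.81 (1.75-fold, SE 0.30, 95% interval 0.18 to 1.44, adjusted p = 0.235). Their arrays did not overlap between the groups, and neither did those of Tbx5 (0.43, adjusted p = 0.447), Actc1 (0.38, adjusted p = 0.427) and Tnnt2 (0.28, adjusted p = 0.784). These 5 of 10 had all treated arrays above all untreated arrays, as had 12.1% of all genes. The other members gave between -0.15 (Myh7) and 0.18 (Tnni1). With array weights Myl4 was called (adjusted p = 0.0338; 0.0338 to 0.552 over the alternatives). Myl7 was called when only the arrays of the 2 groups entered the fit (adjusted p = 0.0244; 0.0244 to 0.661).

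At day 8 the differences lay between -0.40 (Myl7, 95% interval -1.03 to 0.23) and 0.45 (Tbx5, 95% interval -0.01 to 0.91, adjusted p = 0.216). Nkx2-5 was the only member whose treated arrays all lay below the untreated arrays (-0.15, adjusted p = 0.345), as did those of 14.2% of all genes. These values rest on untreated arrays that stood apart from each other. Untreated replicate 1 was the highest of its group for 10 of 10 members and replicate 2 the lowest for 10 of 10, with mean deviations of 0.65 and -0.54 from the group means. In treated EBs replicate 3 was the highest for 9 members and replicate 2 the lowest for 8. Averaged over the 10 members, the arrays read 8.70, 8.48 and 8.97 in treated EBs and 9.43, 8.25 and 8.67 in untreated EBs. Without untreated replicate 1, Tnni1 was called higher in treated EBs (0.79, adjusted p = 0.0052; 0.0052 to 0.859 over the alternatives), as was Tbx5 (0.73, adjusted p = 0.0319; 0.0042 to 0.772).

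**Figure D4:**
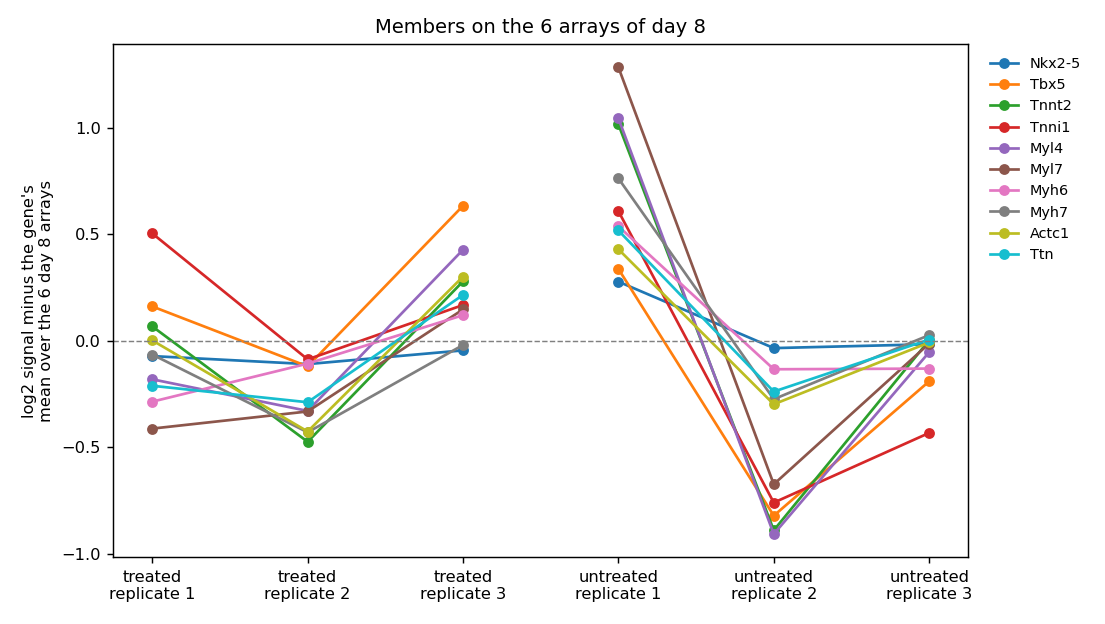
Log2 signal of each member on the 6 arrays of day 8, as the deviation from that gene's mean over the 6 arrays (vertical axis). Lines join the arrays of a group only to show 1 gene. Untreated replicate 1 is above its group for all members and untreated replicate 2 below it, and the treated arrays lie within a narrower band.

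Markers of other cell types moved over the same day 8 arrays. The 10 fibroblast and mesenchyme markers averaged 10.38, 8.89 and 9.96 in treated EBs and 8.87, 8.15 and 8.47 in untreated EBs, with 8 of 10 called higher in treated EBs (4.86% of all genes) and Postn at 2.96. That count was 4 without untreated replicate 2, 3 without treated replicate 1, 4 without treated replicate 3 and 0 when only the 2 groups entered the fit. The 10 pluripotency markers averaged 9.40, 10.56 and 9.87 in treated EBs and 10.29, 10.39 and 10.19 in untreated EBs, with 1 called higher (0 to 1 over the alternatives) and 2 lower (0 to 7). Replicate 2 was the lowest array of both groups for the fibroblast list and the highest for the pluripotency list. Of the other lists, 6 of 10 endothelial markers were called higher and 7 of 10 neural progenitor markers lower in treated EBs, where 4.86% of all genes were higher and 4.08% lower. Without untreated replicate 2, treated replicate 1 or treated replicate 3 the endothelial count was 0, 0 and 1 and the neural count 2, 2 and 3, and both were 0 in the fit of the 2 groups only. The part of these cell types in the member values was not tested.

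At day 12, when the inhibitors had been off since day 8, treated and untreated EBs overlapped for 9 of the 10 members. The exception was Myh6, at 9.53 ± 0.22 in treated EBs and 9.97 ± 0.21 in untreated EBs (SD, n = 3 each), a difference of -0.44 (0.74-fold, SE 0.16, 95% interval -0.77 to -0.10, limma adjusted p = 0.0653). All treated arrays below all untreated arrays was seen for 17.1% of all genes. Tbx5 gave 0.52 (1.43-fold, SE 0.22, 95% interval 0.06 to 0.98, adjusted p = 0.113) and Myh7 -0.39 (SE 0.23, 95% interval -0.87 to 0.10, adjusted p = 0.282). The other 7 lay between -0.18 (Ttn) and 0.24 (Tnni1), and Myl4 at -0.02 had an interval of -0.65 to 0.61. With the replicate number as a block within the day, Tbx5 was called higher in treated EBs (adjusted p = 0.0234; 0.0234 to 0.351 over the alternatives). Under the same block Myh6 (adjusted p = 0.0487; 0.0485 to 0.28) and Myh7 (adjusted p = 0.0432; 0.0432 to 0.844) were called lower. Myh6 was also called without untreated replicate 1 (-0.53, adjusted p = 0.0485). Other cell type lists differed at the same day: 5 of 10 fibroblast, 2 of 10 endothelial, 2 of 10 smooth muscle (2 to 6 over the alternatives) and 6 of 10 pluripotency markers were called higher in treated EBs (7.49% of all genes), and 8 of 10 neural progenitor markers lower (10.4%). Their part in the member values was not tested.

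Whether the treatment difference itself changed from one day to the next was tested as an interaction. In limma without a replicate block, 0 of 10 members were called at each of the 3 steps, with 1, 2 and 0 at an unadjusted p below 0.05. Of all genes, 0.0953% were called between days 4 and 6, 0.401% between days 6 and 8 and 5.2% between days 8 and 12. The widest gap was that of Myl7, whose treatment difference at day 8 was 1.20 below that at day 6 (interaction -1.20, SE 0.43, adjusted p = 0.268). Myl4 gave -0.90 at the same step (SE 0.43, adjusted p = 0.438).

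Ranked by mean signal, the 2 groups of day 12 stood at the top of all 8 groups for each of the 10 members. Their order was treated over untreated for Tbx5, Tnnt2 and Tnni1 and untreated over treated for the rest, and only for Myh6 did the arrays of these neighbours not overlap. Of 7 neighbouring pairs in the order, 1 (Tbx5) to 3 (Actc1 and Tnnt2) were apart by the ranges of their arrays.

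Other genes of the cardiac programme were taken from 3 lists of known genes, which were not tested against each other. The lists were chosen with earlier results of these data known, so their counts are descriptions. The 20 other cardiac regulators, transcription and chromatin factors of heart mesoderm, had 7 called higher and 0 lower in treated EBs at day 6, with a median of 0.40, where 1.26% of all genes were called higher. The other 13 were not called. Tbx3, a T-box repressor of the conduction system, averaged 10.67 ± 0.48 in treated EBs and 8.91 ± 0.45 in untreated EBs (SD, n = 3 each), which is 1.76 higher (SE 0.21, adjusted p = 1.25e-04). Hand1, a bHLH factor of the left ventricle, differed by 2.15 (SE 0.30, adjusted p = 4.41e-04), Tbx20 by 1.84 (SE 0.30, adjusted p = 0.0014) and Isl1, a factor of second heart field progenitors, by 1.27 (SE 0.21, adjusted p = 0.0017). All 4 had every treated array above every untreated array, and all 4 were called under all 15 alternatives run for the lists. Tbx3 is also in the pluripotency list, where it was the only gene called at day 6.

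At the same day the 21 measured other sarcomere genes had 0 called higher and 1 lower in treated EBs, with a median of -0.02, where 0.577% of all genes were called lower. That gene was Acta1, skeletal alpha-actin (-0.44, adjusted p = 0.0465), whose call ended under 7 of 15 alternatives (adjusted p up to 0.207), among them those without untreated replicate 2 or 3 or treated replicate 1 or 3. Of 17 measured membrane and calcium handling genes, 1 was higher: Cacna1c, the pore subunit of the L-type calcium channel (0.78, SE 0.14, adjusted p = 0.0031).

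At day 8 the regulators had 6 called higher and 1 lower (4.86% and 4.08% of all genes), but this count ranged from 0 to 11 higher over the alternatives. It was 1 without untreated replicate 2, 1 without treated replicate 1 and 2 without treated replicate 3. Hey2, a Notch-dependent repressor of the ventricle, differed by 1.08 (adjusted p = 0.0042), and its call ended only when the fit was limited to the 2 groups (adjusted p = 0.149). The other sarcomere genes had 1 called higher, Tmod1, which caps the pointed ends of actin filaments (1.14, adjusted p = 0.0191). The membrane and calcium genes also had 1, Ryr2, the calcium release channel (0.54, adjusted p = 0.0461). Both counts went to 0 without untreated replicate 2 or 3, or treated replicate 1 or 3. Without treated replicate 2 the sarcomere count was 2 and the membrane and calcium count 4, and with array weights they were 2 and 5.

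At day 12 the regulators had 5 called higher and 1 lower (7.49% and 10.4% of all genes), with a median of 0.16. Gata6 averaged 12.67 ± 0.23 in treated EBs and 11.45 ± 0.07 in untreated EBs (1.22, SE 0.20, adjusted p = 1.42e-04), Gata4 differed by 1.04 (adjusted p = 0.002) and Hand2 by 1.08 (adjusted p = 0.0043). The count of 5 was 8 with the replicate block, and 3 without untreated replicate 2, untreated replicate 3 or treated replicate 1. The other sarcomere genes had 0 higher and 2 lower. That is 9.52% of the 21 called, beside 17.9% of all genes, so this list was called no more often than all genes. Nebl, a Z-disc protein of the nebulin family, averaged 8.10 ± 0.20 in treated EBs and 8.75 ± 0.23 in untreated EBs (-0.65, SE 0.10, adjusted p = 6.84e-05). Tnni3, the adult cardiac troponin I, averaged 8.83 ± 0.25 in treated EBs and 9.42 ± 0.22 in untreated EBs (-0.59, SE 0.11, adjusted p = 5.22e-04). With the replicate block 4 were lower. The 17 membrane and calcium genes had 1 higher and 1 lower, or 11.8% called, which is also below the share of all genes. Pln, the inhibitor of the calcium pump of the sarcoplasmic reticulum, averaged 7.53 ± 0.47 in treated EBs and 8.48 ± 0.32 in untreated EBs (-0.95, SE 0.18, adjusted p = 5.91e-04). Hcn4, the pacemaker channel, averaged 9.14 ± 0.08 in treated EBs and 8.57 ± 0.13 in untreated EBs (0.58, SE 0.12, adjusted p = 0.0017). Gata6, Gata4, Hand2, Nebl, Tnni3, Pln and Hcn4 were each called under every alternative that gave a value, the 2-fold threshold aside, which was applied to the members only.

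**Figure D5:**
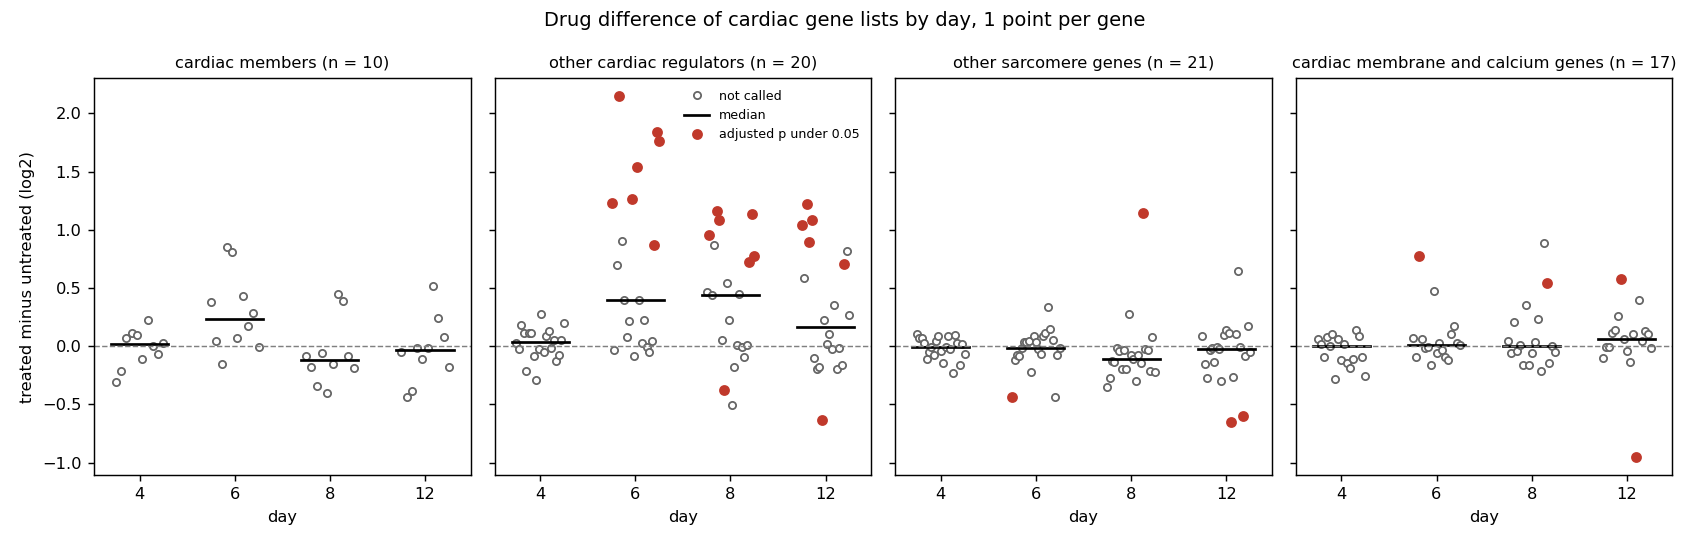
Difference in log2 signal between treated and untreated EBs (vertical axis) by day for the 10 members and 3 lists of other cardiac genes, 1 point per gene, with the median of the list as a bar. Filled red points were called. The regulators hold 7 called genes at day 6, and the members hold none at any day in this fit, which has no replicate block (with the block within the day, 1 higher and 2 lower at day 12).

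Most of the called genes in the 3 lists of other cardiac genes rose at day 12, as the members did. Between days 8 and 12, 12 of 21 other sarcomere genes rose and 0 fell in treated EBs, and 12 rose and 1 fell in untreated EBs. Of all genes 16.5% rose and 16.7% fell in treated EBs at this step, and 18.8% and 19.9% in untreated EBs. Actn2, the Z-disc alpha-actinin, rose by 1.91 in treated EBs (adjusted p = 1.37e-10) and by 1.79 in untreated EBs (adjusted p = 1.91e-10). Of the membrane and calcium genes 8 of 17 rose in each treatment, and Slc8a1, the sodium-calcium exchanger, rose by 2.70 in treated EBs (adjusted p = 8.95e-14) and by 2.42 in untreated EBs (adjusted p = 3.11e-13). The 20 regulators had 6 higher and 3 lower in each treatment, the latter no larger a share than that of all genes. Between days 4 and 6 the regulators had 11 higher and 1 lower in treated EBs and 5 higher and 1 lower in untreated EBs. Of all genes 19.1% rose and 25.1% fell there in treated EBs, and 21.1% and 20.9% in untreated EBs. The 5 rises in untreated EBs were thus near the share of all genes. Between days 6 and 8, 12 regulators rose and 3 fell in treated EBs (16.8% of all genes rose and 24.7% fell). In untreated EBs 15 rose and 0 fell (17.8% of all genes rose and 18.3% fell).

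A list of calcineurin signalling genes was also read. Of 15 subunits, NFAT factors, regulators and binding proteins of the drugs, 0 were called in limma at day 4 and 0 at day 6 (4 at an unadjusted p below 0.05 at day 6), 2 higher at day 8 (4.86% of all genes) and 1 higher at day 12 (7.49%). Over the alternatives the day 8 count ran from 0 to 4 and the day 12 count from 0 to 1. Nfat5, the tonicity-responsive family member that does not bind calcineurin, was higher in treated EBs at day 8 (0.39, adjusted p = 0.0128) and at day 12 (0.28, adjusted p = 0.0404), calls that ended under 5 of 15 alternatives at day 8 and 6 of 15 at day 12.

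The members resembled each other over the 8 group means. The correlation of each with the mean profile of the other 9 ranged from 0.86 (Actc1) to 1.00 (Tnnt2), as a description over 8 points that share the same arrays. The 5 other genes closest to the mean standardised profile of the 10 were Ypel4 (r = 0.996), Tmem259 (0.994), Nr2f2 (0.993), Osr1 (0.992) and Alpk2 (0.991). Of these, Nr2f2, an orphan nuclear receptor of atrial cells and other mesoderm, spanned group means of 6.86 to 10.82. Osr1, a zinc finger factor of intermediate and lateral mesoderm, spanned 6.90 to 9.46, and Alpk2, an alpha-kinase gene, spanned 5.93 to 7.64. Ypel4 and Tmem259 followed the profile over much smaller ranges, of 7.19 to 7.76 and of 10.94 to 11.19.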

How the data were processed

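The deposited log2 signals are RMA values from Affymetrix Expression Console, per the submitters' processing notes, whose version and build the sources used here do not name. The log2 scale was read from the values. Of 35556 probe sets, 21789 carried 1 symbol in the platform annotation, 1621 several, and 12146 were unlisted; 21698 were matched to the GRCm38.p6 gene table and 0 symbols changed. Where 999 genes had several probe sets, the one with the highest mean was kept, leaving 19938 genes. Arrays have no read depth, so the number of arrays limits the precision. No 2 arrays were duplicates (smallest SD between a pair 0.175).

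Groups came from the sample titles. Limma 3.58.1 in R 4.3.3 fitted 1 mean per group to all 24 arrays (16 residual degrees of freedom), with eBayes and Benjamini-Hochberg adjustment per contrast over all genes at 0.05; tables used pandas 2.3.3 and numpy 2.4.6 under Python 3.11.15, and figures matplotlib 3.10.9. The script was tested on simulated data. P-values of this fit, which has no replicate block, measure the spread between arrays of a group. The labels describe these as independent experiments. Any variation that treated and untreated arrays of an experiment share stays in that spread.

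Same-numbered treated and untreated arrays deviated together at day 6 (r 0.138 to 0.297), day 8 (0.107 to 0.553) and day 12 (0.118 to 0.341), each above the minimum of 0.1, and not at day 4 (-0.05 to 0.19). The labels name 3 experiments but do not tie the numbers to them.

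Alternatives were a filter at the 40th percentile, quantile normalization, median centring, the mean of probe sets, a trended robust prior, array weights, 2 replicate blocks, a 2-fold threshold, fits limited to the groups compared, and leaving out each array. The members and all lists were chosen with earlier results of these data known. Named genes were all members, up to 4 genes per list with the smallest p in the contrast described, and the 5 most alike. No promoter of Tbx5 was used here.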

Additional observations from a re-analysis of the deposited data

How the results depend on the processing

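No member changed direction with a call under any setting. The totals here leave out the 2-fold threshold, which enters only the counts further on. Of 592 recomputed treatment values of the members 582 kept their call, of 828 values for day steps 759 did, and of 624 interaction values all 624 did. The 40th percentile filter gave no value for Tbx5 and Ttn.

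Against untreated EBs, members called higher numbered 1 with array weights and 1 with the groups compared only at day 6, and 1 with array weights at day 8. At day 12 they numbered 1 with the replicate block within day and 1 with it across days, and those called lower numbered 2 with the block within day. Leaving out single arrays gave 0 to 2 higher at day 8 and 0 to 1 lower at day 12. Between days 4 and 6, members called lower in treated EBs numbered 0 with the filter, quantile normalization, the trended prior, the block across days or the 2-fold threshold, 2 with centring, 4 with array weights, 2 with the groups only, and 0 to 1 with single arrays left out. Those called higher there numbered 1 with quantile normalization, the trended prior or the 2-fold threshold, and 1 to 3 with single arrays left out. In untreated EBs, members called lower numbered 4 with array weights, 5 with the groups only and 0 at 2-fold. Between days 6 and 8, members called higher numbered 9 with array weights, 3 at 2-fold and 4 to 8 with single arrays left out in treated EBs, and 3 at 2-fold in untreated EBs. The cause of these shifts was not tested, apart from the stricter threshold. The replicate block changed no other treatment call of a member.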
